A study of Mus musculus with 4 samples.

Results

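The weak solitary RNA polymerase II (Pol II) peaks of mouse embryonic stem cells are 4402 autosomal bins of 1 kb in which Pol II tags stood above their surroundings at a low level. They were chosen on the summed tags of all 4 libraries. Each read position was counted once per strand and moved by 41 bp toward the fragment centre, and a bin was taken when it held 40 to 99 tags and no bin within 10 bins on either side held more. They made up 26.1% of the 16836 autosomal bins with at least 40 tags, and 48.4% of all bins that reached 40 tags and were the highest within 10 bins. The other summit bins, 4684 with 100 or more tags, are called strong summit bins here. Since 57 of the 4402 bins shared their height with another bin of their neighbourhood, a few neighbourhoods count more than 1 bin.

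The study asked how Pol II held early in transcription depends on the pausing factors Spt4, Spt5 and NelfE. Chromatin immunoprecipitation and sequencing (ChIP-seq) was run on V6.5 embryonic stem cells of the C57BL/6-129 background with an antibody to the N-terminus of Rpb1, the largest Pol II subunit, which reads total Pol II. For about 4 days the cells carried a short hairpin RNA: shSpt4, shSpt5 and shNelfE are named for the gene they target, and shControl is the control hairpin. All 4 cultures, the control included, also received flavopiridol at 1 µM for 1 h before fixation, so no library shows Pol II without the drug. Each group held 1 library. No difference between libraries therefore has a replicate check, and no p-value is given. The knockdown cells were grown for 2 passages off feeder cells and their libraries shared a flow cell, while the control cells were grown for 1 passage off feeders and were sequenced on another flow cell. Knockdown, passage and flow cell thus cannot be told apart wherever a knockdown is set against shControl. These data hold no measure of how far each hairpin lowered its target.

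Pol II that has begun a transcript often halts a short way into the gene. DSIF, made of Spt4 and Spt5, binds Pol II at this stage and stays with it during elongation, while NELF, of which NelfE is a subunit, binds the halted enzyme together with DSIF. Cdk9, the kinase of P-TEFb that flavopiridol inhibits, phosphorylates Spt5, NELF and the Rpb1 tail, after which NELF leaves and Pol II moves into the gene body. In embryonic stem cells, halted Pol II is found at the starts of many genes, those of low expression included, and weak Pol II peaks are also known at enhancers. The positions refer to the mouse build mm8, for which no gene annotation was at hand, so no bin is assigned here to a gene, promoter or enhancer.

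Across the weak solitary bins Pol II per kept tag was lowest in shSpt5, at similar intermediate levels in shSpt4 and shNelfE, and highest in shControl. In the 4402 bins shSpt4 had 59588 tags, shSpt5 52846, shNelfE 67050 and shControl 93584. As a share of each library's kept tags, shSpt4 had 2.25% (95% interval 2.23 to 2.27), shSpt5 1.70% (1.68 to 1.71), shNelfE 2.28% (2.27 to 2.30) and shControl 2.95% (2.93 to 2.97). Intervals of shares and ratios are exact binomial 95% intervals, those of a factor between ratios are normal on the log scale, and all cover counting error only. Reads copied by PCR are not independent molecules, and each interval compares libraries, not conditions.

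A single bin rests on few tags. In the median bin shSpt4 had 13 tags, shSpt5 11, shNelfE 15 and shControl 20. The extremes were 1 and 40 tags for shSpt4, 0 and 49 for shSpt5, 1 and 43 for shNelfE, and 3 and 54 for shControl. Scaled to 1000000 kept tags, the mean bin of shSpt4 had 5.11 normalised tags, that of shSpt5 3.85, that of shNelfE 5.18 and that of shControl 6.71. The distributions of the 4 libraries overlapped broadly, with shSpt5 shifted down as a whole and shControl shifted up. In shSpt5, 4 bins held no tag at all, which occurred in no other library. After scaling, shSpt5 was the lowest library in 2400 bins (54.5%), against 57.8% of all bins with at least 40 tags, and shControl was the highest in 2436 bins (55.3%), against 58.1% of all. The place of shSpt4 and shNelfE differed more from that of all bins. The lowest library was shSpt4 in 20.6% and shNelfE in 19.1% of the weak solitary bins, against 16.2% and 20.1% of all bins, and the highest was shSpt4 in 19.6% and shNelfE in 16.9%, against 21.6% and 12.6%.

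**Figure D1:**
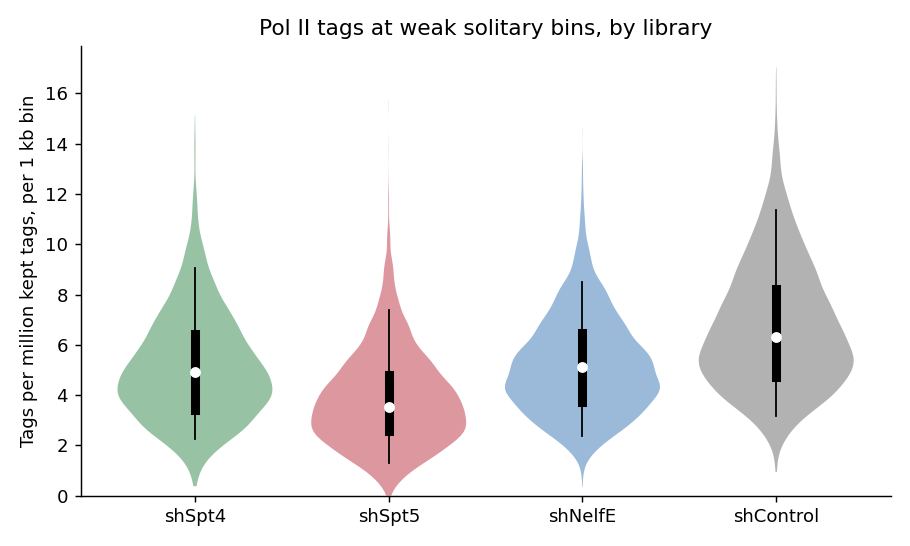
Normalised Pol II tags per 1 kb bin (vertical axis, tags per 1000000 kept tags) over the 4402 weak solitary bins in shSpt4, shSpt5, shNelfE and shControl. Outlines show the distribution over bins, white points the medians, thick bars the 25th to 75th percentiles and thin bars the 5th to 95th percentiles; the median lies lowest in shSpt5 (3.53) and highest in shControl (6.31), and all 4 distributions overlap.

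The pooled height of the bins was set by how they were chosen and is given only as a description. The median was 58 tags, with quartiles of 47 and 75, against a median of 189 and a maximum of 3522 in strong summit bins. Numbers fell with height, from 1354 bins with 40 to 49 tags and 941 with 50 to 59 to 385 with 90 to 99. Occupied autosomal bins averaged 5.89 pooled tags, and bins far from any enriched bin averaged 3.84. The weak solitary bins together held 2.35% of all pooled autosomal tags.

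Solitary describes these bins only in part. No other bin of 20 or more tags lay 2 to 10 bins away in 2423 of them (55.0%), while the remaining 1979 had such a bin and 564 (12.8%) had a bin of 40 or more tags there. In 2653 bins (60.3%) a directly adjacent bin held 20 or more tags. In 1707 bins an adjacent bin held at least as much as 50% of the summit's tags, and in 815 (18.5%) the highest point lay within 100 bp of the bin's edge, so the bin grid divided some peaks. Every weak solitary bin lay more than 10 kb from a bin of 100 or more tags, as the rule requires, at a median of 78 kb, and 90% lay 15 to 901 kb away.

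Strand and spread within the bin were not used by the rule. Tags came evenly from both strands, with a median of 50% on the plus strand and 90% of bins between 39.5% and 60.7%. A median of 31.8% of a bin's tags fell in its densest 100 bp, against 34.1% in strong summit bins. Such a maximum comes out larger by counting alone where tags are few, so shares of this kind are not like for like between the sets. In 299 bins (6.79%, against 7.45% of strong summit bins) at least 50% of the tags fell in 100 bp, and 3 bins had 80% or more of their tags on 1 strand. One of these, chromosome 2, 90195000 to 90195999, was singled out after its values were seen. All its tags lay on the minus strand within 100 bp, where shSpt4 had 16, shSpt5 11, shNelfE 18 and shControl 15. Such a one-sided pile is unlike the 2-stranded shape of the rest, and its level was alike in the libraries within counting error. This bin also held 38 second-category reads (described below), while 82.4% of the weak solitary bins held none.

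The bins were spread over all 19 autosomes and tracked strong summit bins in number. Chromosome 7 held most (358) and chromosome 18 fewest (131). Density ran between 1.21 bins per Mb on chromosome 3 and 2.79 per Mb on chromosome 11. For each strong summit bin there were between 0.780 weak solitary bins on chromosome 11 and 1.14 on chromosome 6.

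In the comparison of shSpt4 with shControl, Pol II at the weak solitary bins was lower in shSpt4, the library with a hairpin against the small subunit of DSIF. The ratio of normalised tags was 0.763 (0.755 to 0.770), and the median over bins was 0.772, against 0.811 over all bins with at least 40 tags. The level was lower in shSpt4 than in shControl in 72.3% of the bins. Bins counted as changed had a ratio of at least 2 or at most 0.5 with an interval that left out 1. By that measure 68 bins were higher (1.54%, against 1.34% of all bins with at least 40 tags) and 648 lower (14.7%, against 11% of all bins). The share of higher bins was near that background and the share of lower bins was above it. Such shares also depend on the tags per bin, which were more in strong summit bins.

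In the comparison of shSpt5 with shControl, the reduction per kept tag was the largest of the 3 knockdowns, an order that turned between shSpt5 (0.958) and shSpt4 (0.940) when libraries were scaled by the median ratio over all bins. Spt5 is the large DSIF subunit and contacts Pol II directly. The ratio was 0.574 (0.568 to 0.581) with a median over bins of 0.577, against 0.600 over all bins with at least 40 tags, and 84.0% of the bins were lower in shSpt5. Of the 4402 bins, 36 were higher (0.818%, against 0.938% of all bins) and 1527 lower (34.7%, against 31.7% of all bins). The background includes the weak solitary bins. Among the 5804 other bins of 40 to 99 tags, 29.3% were lower, and the difference between these shares was not tested.

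In the comparison of shNelfE with shControl, the ratio was 0.773 (0.765 to 0.781), the median over bins was 0.778 against 0.766 over all bins, and 74.2% of the bins were lower in shNelfE. Here 26 bins were higher (0.591%, against 0.57% of all bins) and 474 lower (10.8%, against 8.21% of all bins). The summed reduction was thus close to that in shSpt4, while fewer single bins passed the measure of change.

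The knockdowns were also set against each other. They share neither flow cell nor passage number with shControl but do so among themselves, so these ratios are free of that difference. The ratio of shSpt5 over shSpt4 was 0.753 (0.744 to 0.762), with 69 bins higher (1.57%, against 1.27% of all bins) and 663 lower (15.1%, against 14.2% of all bins). The ratio of shNelfE over shSpt5 was 1.35 (1.33 to 1.36), with 734 bins higher (16.7%, against 13.9% of all bins) and 78 lower (1.77%, against 1.64% of all bins). The ratio of shNelfE over shSpt4 was 1.01 (1.00 to 1.03), with 211 bins higher (4.79%, against 3.51% of all bins) and 183 lower (4.16%, against 3.71% of all bins). Per kept tag, shSpt5 thus lay below shSpt4 and shNelfE by more than counting error, while shNelfE and shSpt4 came to nearly equal sums. Scaled instead by the median ratio over all enriched bins, shSpt5 over shSpt4 was 1.009 (0.997 to 1.021). The separation of shSpt5 from shSpt4 was thus not seen on that scale.

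Choosing the bins on sums that include the compared libraries had little bearing on these ratios. When the bins were chosen again on the 2 libraries outside each comparison, as summit bins of 20 to 49 tags, shSpt4 over shControl was 0.766 (4553 bins), shSpt5 over shControl 0.575 (4629 bins) and shNelfE over shControl 0.764 (4185 bins). At the edges of the rule, given once as a description, the summit bins just below it (39 tags, 187 bins) had ratios to shControl of 0.763 for shSpt4, 0.600 for shSpt5 and 0.783 for shNelfE. The lowest bins inside it (40 tags, 172 bins) had 0.760, 0.583 and 0.805, in the same order of libraries. The highest bins inside it (99 tags, 30 bins) had 0.793, 0.542 and 0.710, and the first above it (100 tags, 38 bins) had 0.763, 0.528 and 0.736. Nothing in the ratios marked either edge.

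The scale on which libraries are compared matters for the size of every ratio to shControl. Quiet bins, those with no bin of 20 or more tags within 20 kb, held more normalised tags in the knockdown libraries, with shSpt4 at 1.14 times shControl, shSpt5 at 1.26 times and shNelfE at 1.13 times. Scaled by quiet bins instead of all kept tags, the ratios at the weak solitary bins were 0.670, 0.455 and 0.681. Scaled by the median ratio over all enriched bins, which sets the typical enriched bin to no change, they were 0.940 for shSpt4 and 0.958 for shSpt5, and for shNelfE the ratio was 1.009 (0.999 to 1.019), with no reduction. None of these scales measures the total Pol II on chromatin. Taking off each library's local background, measured 5 to 10 bins away, gave 0.747, 0.540 and 0.751, so the ratios were no nearer to 1 without it.

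Bins varied around these ratios by more than counting, and unequally so. Pearson's statistic for a common ratio, which counting alone would put at 1 per bin, was 2.37 for shSpt5 over shControl, 1.80 for shSpt4 over shControl and 1.35 for shNelfE over shControl. Among the knockdowns it was 1.84 for shSpt5 over shSpt4, 2.03 for shNelfE over shSpt5 and 1.58 for shNelfE over shSpt4. Against shControl, which all 3 comparisons share, shNelfE was thus the most even across these bins and shSpt5 the least even.

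The weak solitary bins differed from strong summit bins most clearly in shSpt4. Strong summit bins had a ratio of shSpt4 over shControl of 0.845, so the ratio at weak solitary bins was 0.903 times that at strong ones (0.892 to 0.913), and it was lower than at strong ones on 19 of 19 chromosomes. For shSpt5 over shControl, strong summit bins had 0.608, the weak-to-strong factor was 0.945 (0.934 to 0.956), and weak bins were lower on 18 of 19 chromosomes, chromosome 8 being the exception. For shNelfE over shControl the factor was 1.02 (1.01 to 1.03) over a strong ratio of 0.756, and weak bins were lower on 5 of 19 chromosomes. A factor of this kind does not depend on how the libraries are scaled, but it can change with background and with the handling of repeated reads. With the local background taken off, shSpt4 over shControl was 0.747 at weak and 0.844 at strong bins, and shSpt5 over shControl 0.540 and 0.599. For shNelfE over shControl the values were 0.751 and 0.750, so that difference was not seen there. With all reads kept in the same bins, classes by pooled tags had shSpt5 over shControl of 0.554 to 0.577 among weak bins. Strong classes up to 499 tags had 0.561 to 0.567, and the tallest class had 0.714. Below the tallest class, the weak-to-strong difference of shSpt5 was thus not seen with all reads.

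Weak and strong bins also differed without the control library. The ratio of shNelfE over shSpt4 was 1.01 at weak solitary bins and 0.895 at strong summit bins, a factor of 1.13 (1.12 to 1.15), and weak bins were the higher on 19 of 19 chromosomes. Strong summit bins thus held less Pol II per kept tag in shNelfE than in shSpt4, and weak solitary bins held about as much. Scaled by the median ratio over all enriched bins, shNelfE over shSpt4 at the weak solitary bins was 1.07 (1.06 to 1.08). The ratio of shSpt5 over shSpt4 was 0.753 at weak and 0.719 at strong bins, a factor of 1.05 (1.03 to 1.06). The ratio of shNelfE over shSpt5 was 1.35 at weak and 1.24 at strong bins, a factor of 1.08 (1.07 to 1.10), with weak bins higher on 19 of 19 chromosomes. With the local background off, weak and strong bins had 1.005 and 0.889 for shNelfE over shSpt4 and 1.39 and 1.25 for shNelfE over shSpt5. For shSpt5 over shSpt4 they had 0.722 and 0.710, which lay closer together. Repeated reads, which were reduced to 1 per position, made up 8.12% (shSpt4) to 17.3% (shSpt5) of a library's reads at weak solitary bins, and 13.5% to 21.2% at strong ones, with shSpt4 and shSpt5 again at the ends. When the weak bins were chosen again with all reads kept (4867 bins), their ratios to shControl were 0.756 for shSpt4, 0.575 for shSpt5 and 0.779 for shNelfE.

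**Figure D2:**
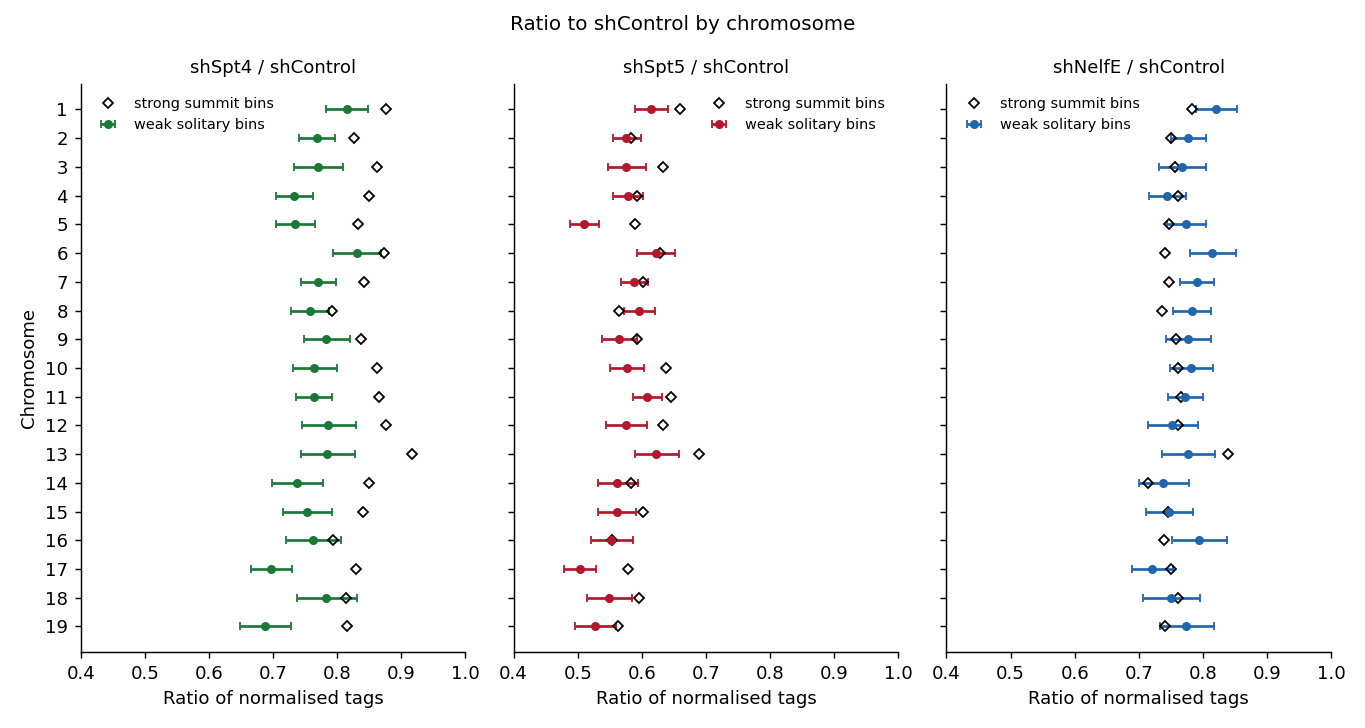
Ratio of normalised tags to shControl (horizontal axis) on each autosome (vertical axis) for shSpt4, shSpt5 and shNelfE, from left to right. Filled points with 95% counting intervals are the weak solitary bins and open diamonds the strong summit bins; in shSpt4 every filled point lies left of its diamond, in shSpt5 18 of 19 do, and in shNelfE 5 of 19 do.

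The ratios also differed from those of other bins in the same range of height. Another 5804 bins held 40 to 99 tags but had a higher bin within 10 bins, and so lay beside taller summits. Their ratios to shControl were 0.803 (0.796 to 0.810) for shSpt4, 0.628 (0.622 to 0.634) for shSpt5 and 0.791 (0.784 to 0.798) for shNelfE. Within this range of height the weak solitary bins were thus lower than these in all 3 comparisons, which share the control library. With the local background off, weak solitary and other bins had 0.747 and 0.797 for shSpt4, and 0.540 and 0.593 for shSpt5. For shNelfE they had 0.751 (0.743 to 0.760) and 0.764 (0.754 to 0.775), and these intervals overlapped.

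Chromosomes of the same libraries are not replicates, but they show how even the ratios were along the genome. Over the 19 autosomes the ratio at weak solitary bins averaged 0.762 ± 0.035 (SD) in shSpt4, between 0.687 on chromosome 19 and 0.831 on chromosome 6. It averaged 0.572 ± 0.034 in shSpt5, between 0.503 on chromosome 17 and 0.622 on chromosome 13, and 0.771 ± 0.025 in shNelfE, between 0.721 on chromosome 17 and 0.821 on chromosome 1. All 3 ratios were below 1 on each autosome.

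By height, the ratios of shSpt4 and shSpt5 to shControl stayed level within the weak solitary bins and were higher above them. For shSpt5 below the tallest class, this held only with 1 tag kept per position. From the 40-to-49-tag class to the 90-to-99-tag class the ratio of shSpt4 over shControl kept between 0.749 and 0.778, with no order by height. Above 100 tags it climbed through 0.787, 0.817, 0.827 and 0.858 to 0.977 in the 200 bins with 500 or more tags. The ratio of shSpt5 over shControl kept between 0.565 and 0.579 in the weak classes and between 0.583 and 0.594 in strong classes up to 499 tags. It was 0.735 in the tallest class, that of 500 or more tags. With all reads kept, the ratio of shSpt5 over shControl was 0.554 to 0.577 in the weak classes. It was then 0.561 to 0.567 in strong classes up to 499 tags and 0.714 in the tallest. The ratio of shNelfE over shControl, with 1 tag kept per position, was 0.778 to 0.789 in the weak classes up to 79 tags. It was 0.738 at 80 to 89 tags and 0.754 at 90 to 99, so it was lower already within the weak solitary bins. In strong classes it was 0.734 to 0.740 up to 499 tags and 0.889 above. The height classes were set on pooled tags that include the compared libraries.

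**Figure D3:**
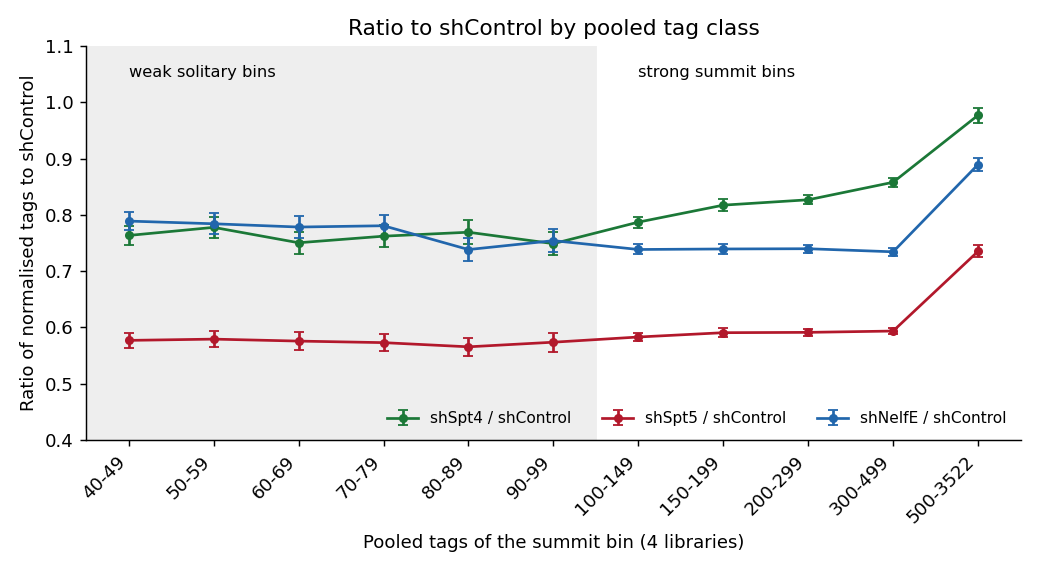
Ratio of normalised tags to shControl (vertical axis) in classes of summit bins by pooled tags (horizontal axis) for shSpt4, shSpt5 and shNelfE, with 95% counting intervals. The 6 classes on the shaded ground are the weak solitary bins, in which the ratio of shSpt4 keeps between 0.749 and 0.778; it climbs with height in the strong summit bins, and all 3 ratios are highest in the tallest class.

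Distance to the nearest bin of 100 or more tags separated the weak solitary bins in both DSIF knockdowns. The ratio of shSpt4 over shControl was 0.698 in the 509 bins 11 to 20 kb from such a bin, then 0.744, 0.759, 0.768 and 0.783 with growing distance, and 0.860 in the 462 bins more than 500 kb away. The ratio of shSpt5 over shControl was 0.538 in the nearest class, 0.561, 0.553, 0.589 and 0.597 in between, and 0.640 in the farthest. That of shNelfE over shControl showed no such order, with 0.788 in the nearest class, between 0.764 and 0.774 in the middle ones and 0.794 in the farthest. The farthest class exceeded the nearest by a factor of 1.23 (1.18 to 1.29) for shSpt4 and was the higher on 17 of 19 chromosomes. The factor was 1.19 (1.14 to 1.25) for shSpt5, also on 17 of 19, and 1.01 (0.965 to 1.05) for shNelfE, on 8 of 19.

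The levels behind these ratios are given as a description. Mean normalised tags per bin were 5.31 in the farthest and 4.89 in the nearest class for shSpt4, and 3.95 and 3.77 for shSpt5. They were 4.90 and 5.53 for shNelfE, and 6.18 and 7.01 for shControl. The rule holds the sum of the 4 libraries nearly fixed, so a higher level in some goes with a lower one in others, and these means do not show which library moved. Between knockdowns, the ratio of shNelfE over shSpt4 was 0.924 (0.892 to 0.956) in the farthest class and 1.13 (1.09 to 1.17) in the nearest, a factor of 0.818 (0.780 to 0.857), and this factor was above 1 on 3 of 19 chromosomes. The nearly equal sums of shNelfE and shSpt4 over all weak solitary bins therefore covered a ratio below 1 far from strong bins and above 1 near them.

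Strong summit bins with no other bin of 100 or more tags within 10 bins, grouped by distance in the same way, did not show this trend to the same degree. Their factor of farthest over nearest was 1.01 (0.986 to 1.04) for shSpt4 over shControl, 1.04 (1.02 to 1.08) for shSpt5 over shControl and 0.995 (0.966 to 1.02) for shNelfE over shSpt4. Each of these 3 intervals lay apart from that of the weak solitary bins. Several features moved with distance among the weak solitary bins. Median pooled height was 55.5 tags in the farthest and 60 in the nearest class, and the mean of the surrounding bins was 4.89 and 9.67 pooled tags. Bins with at least 50% of their tags in 100 bp made up 8.44% of the farthest and 3.54% of the nearest class. The surroundings 2 to 10 bins away showed the same order, with ratios of shSpt4 over shControl of 1.03 in the farthest and 0.838 in the nearest class, and of shSpt5 over shControl of 1.03 and 0.799. In shNelfE they were 1.04 and 0.935, an increase that the bins themselves lacked. Around strong summit bins the surroundings also had higher ratios with distance, at 1.03 in the farthest and 0.845 in the nearest class for shSpt4, 1.12 and 0.841 for shSpt5, and 1.05 and 0.896 for shNelfE.

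The part of these features in the trend was not tested beyond the following values. With the local background taken off, the ratio of shSpt4 over shControl was 0.848 in the farthest and 0.676 in the nearest class, and that of shSpt5 over shControl 0.610 and 0.496. Among bins of 50 to 79 tags alone, shSpt4 over shControl was 0.890 and 0.701, and shSpt5 over shControl 0.660 and 0.528. Without bins that held second-category reads (described below) or were concentrated in 100 bp, the factor of farthest over nearest was 1.23 for shSpt4, 1.21 for shSpt5 and 1.02 for shNelfE.

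**Figure D4:**
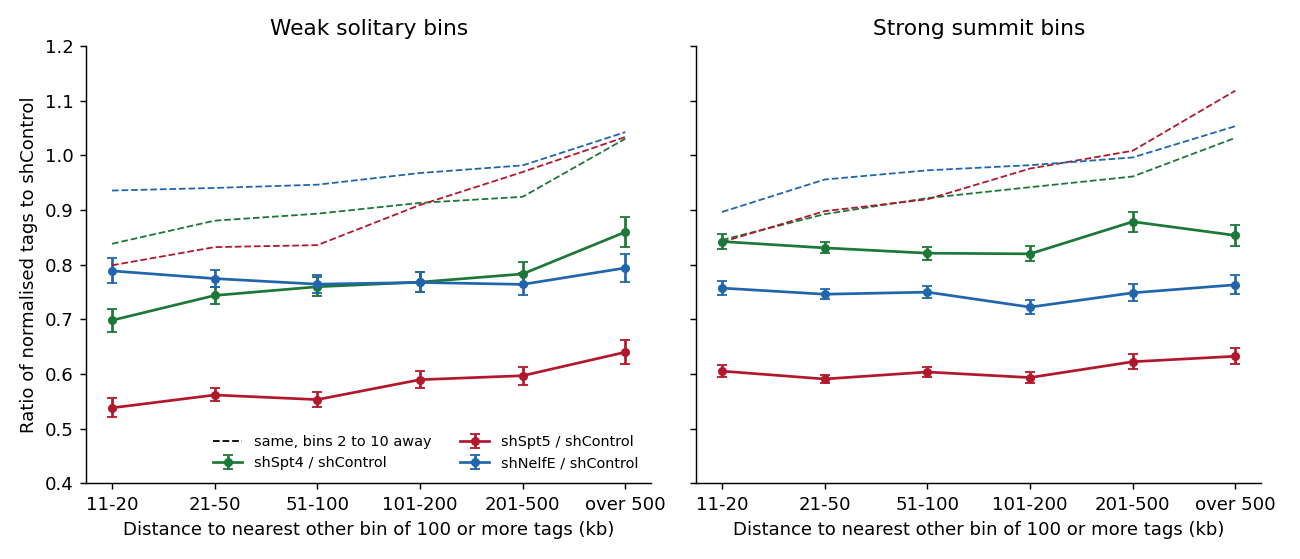
Ratio of normalised tags to shControl (vertical axis) by distance to the nearest other bin of 100 or more tags (horizontal axis, kb) for shSpt4, shSpt5 and shNelfE, in weak solitary bins (left) and strong summit bins (right). Points with 95% counting intervals are the bins and dashed lines the bins 2 to 10 away; among weak solitary bins the ratio of shSpt4 is 0.698 in the nearest and 0.860 in the farthest class, and that of shNelfE shows no order.

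Ratios also differed with the surroundings and the shape of a bin. The 2423 bins with no other bin of 20 or more tags 2 to 10 bins away had a ratio of shNelfE over shSpt4 of 0.994 (0.979 to 1.01), and the 1979 with such a bin had 1.04 (1.02 to 1.06). Between the bins with the most widely spread and the most concentrated tags, shSpt5 and shNelfE over shControl differed in opposite directions. In the 155 bins with under 20% of their tags in the densest 100 bp, shSpt5 over shControl was 0.506 (0.477 to 0.537) and shNelfE over shControl 0.856 (0.813 to 0.901). In the 299 bins with at least 50% there, they were 0.610 (0.586 to 0.635) and 0.758 (0.729 to 0.787). The classes between, by rising concentration, had 0.569, 0.587 and 0.561 for shSpt5, so that ratio had no steady order. For shNelfE they had 0.786, 0.765 and 0.752. In the bins 2 to 10 away, shSpt5 over shControl was 0.769 in the widest and 0.978 in the most concentrated class, and shNelfE over shControl 0.924 and 0.986. What part the surroundings had was not tested. The ratio without the control library, shNelfE over shSpt5, was 1.69 (1.59 to 1.80) in the widest bins and 1.24 (1.19 to 1.30) in the most concentrated ones.

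Pol II was focused at the weak solitary bins in every library, least so in shSpt5. The focal ratio, the tag density in the bins over that 2 to 10 bins away, was 7.67 for shSpt4, 5.96 for shSpt5, 7.29 for shNelfE and 9.01 for shControl. Its pooled size follows from how the bins were chosen, and only its split among libraries was not used. Strong summit bins had focal ratios of 24.8, 18.5, 21.5 and 25.9 in the same order of libraries. With the tag density of quiet bins taken off both terms, shSpt4 had 14.0 at the weak bins, shSpt5 12.2, shNelfE 12.5 and shControl 14.0. Against bins 5 to 10 away, without that step, shSpt4 had 8.14 and shControl 9.52. The part of background tags in the gap between shSpt4 and shControl was not tested beyond these values.

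The highest point of each bin was set where the most pooled tags lay within 150 bp. A narrow peak around it in the mean profile follows in part from this choice. In shControl the density fell from 13.8 normalised tags per kb at 100 bp to 4.77 at 200 bp, just past that window. Only the differences between libraries are therefore of interest here. Within 150 bp of it shSpt4 had a mean density of 11.3 normalised tags per kb, shSpt5 8.12, shNelfE 11.2 and shControl 15.1. The share of tags within 1 kb that lay within 250 bp was 55.5%, 53.0%, 54.9% and 58.2%. Around strong summit bins it was larger in each library, at 63.4%, 61.3%, 62.7% and 64.4%. Around these points the profile was thus slightly flatter in the knockdown libraries than in shControl, which gave the most tags to the pool that placed them.

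The reduction was largest at the centre and smaller away from it. For shSpt5 over shControl the ratio was 0.536 (0.529 to 0.543) within 150 bp, 0.636 at 200 to 500 bp, 0.727 at 600 to 1000 bp and 0.833 (0.822 to 0.843) beyond that up to 3000 bp. For shSpt4 over shControl it was 0.747, 0.783, 0.874 and 0.904 over the same zones. For shNelfE over shControl it was 0.740, 0.825, 0.880 and 0.948. Between knockdowns, shSpt5 over shSpt4 was 0.717 at the centre and 0.921 in the outer zone, so the larger loss in shSpt5 was also focused at the centre. The highest point was found on pooled tags to which shControl gave the most. What part this had in the dip at the centre and in the flatter knockdown profiles was not tested.

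**Figure D5:**
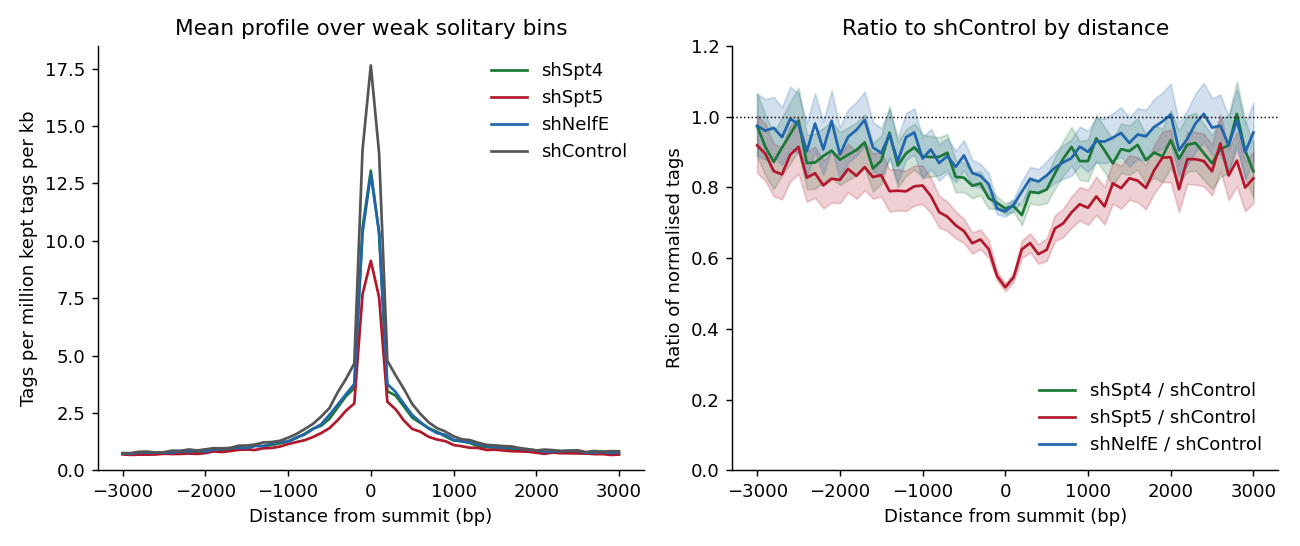
Left, mean normalised tags per kb (vertical axis) by distance from the highest point of the 4402 weak solitary bins (horizontal axis, bp) in shSpt4, shSpt5, shNelfE and shControl. Right, the ratio to shControl at the same distances with 95% counting intervals as bands; all 3 ratios are lowest at the centre, where shSpt5 lies below shSpt4 and shNelfE, and lie nearer to 1 at 3000 bp.

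Single bins with extreme ratios follow, named by 1-kb interval on mm8, with positions numbered as they stand in the deposited reads. They were picked as the highest and lowest 3 of each comparison, so their intervals, which do not allow for that choice, give counting error only. The 3 bins lowest in shSpt5 against shControl held no shSpt5 tag. Chromosome 2, 28031000 to 28031999 held 5 shSpt4 tags, 0 of shSpt5, 16 of shNelfE and 35 of shControl, at least 11.5-fold lower in shSpt5 than in shControl when a count of 3 tags is put in for the 0. Chromosome 16, 30856000 to 30856999 held 6, 0, 14 and 23 tags in the same order of libraries, at least 7.54-fold lower. Chromosome 14, 20358000 to 20358999 held 4, 0, 17 and 21, at least 6.88-fold lower. In these 3 bins shSpt4 had 4 to 6 tags and shNelfE 14 to 17, and at the first of them shNelfE was also below shControl, with a ratio of 0.493 (0.255 to 0.915).

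Another bin without shSpt5 tags, chromosome 16, 94801000 to 94801999, held 0 in shSpt5 against 11 in shSpt4, at least 4.32-fold lower, with 15 in shNelfE and 17 in shControl. It led the bins that were lower in shSpt5 than in shSpt4, where it was followed by 2 bins with more tags. Chromosome 12, 81797000 to 81797999 held 2 tags in shSpt5 against 37 in shSpt4, a ratio of 0.0459 (0.00536 to 0.178), with 32 in shNelfE and 26 in shControl. Chromosome 6, 92210000 to 92210999 held 2 in shSpt5 against 33 in shSpt4, a ratio of 0.0515 (0.00598 to 0.201), with 15 in shNelfE and 33 in shControl. At these 3 bins shSpt4 over shControl was 0.775 to 1.70, so the low level was in shSpt5.

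The reverse occurred too, with low levels in shSpt4 where shSpt5 kept its tags. Chromosome 1, 138766000 to 138766999 held 32 tags in shSpt5 against 4 in shSpt4, a ratio of 6.80 (2.41 to 26.4), with 21 in shNelfE and 24 in shControl. Chromosome 7, 81354000 to 81354999 held 19 in shSpt5 against 2 in shSpt4, a ratio of 8.07 (1.95 to 71.4), with 11 in shNelfE and 9 in shControl. Chromosome 3, 90699000 to 90699999 held 14 in shSpt5 against 1 in shSpt4, a ratio of 11.9 (1.81 to 503), with 12 in shNelfE and 13 in shControl. The wide intervals show how little a bin of this height can settle.

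The bins lowest in shSpt4 against shControl each held 1 shSpt4 tag. Chromosome 4, 144699000 to 144699999 held 1 shSpt4 tag, 6 of shSpt5, 10 of shNelfE and 26 of shControl, a ratio of shSpt4 over shControl of 0.0461 (0.00112 to 0.280). It lay 1993 kb from any bin of 100 or more tags and held 23 second-category reads. Chromosome 11, 90503000 to 90503999 held 1, 8, 12 and 24 tags, a ratio of 0.0499 (0.00121 to 0.306). Chromosome 14, 60553000 to 60553999 held 1, 7, 16 and 22 tags, a ratio of 0.0544 (0.00132 to 0.337), and was also the highest bin in shNelfE over shSpt4, at 14.4 (2.24 to 604). In all 3 bins shSpt5 was below shControl too and shNelfE lay between shSpt5 and shControl. Chromosome 7, 107161000 to 107161999, another bin high in shNelfE over shSpt4, held 25 in shNelfE against 2 in shSpt4, a ratio of 11.3 (2.81 to 98.1), with 8 in shSpt5 and 25 in shControl.

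Low levels in shNelfE came in different company. Chromosome 12, 77392000 to 77392999 held 2 shSpt4 tags, 5 of shSpt5, 3 of shNelfE and 31 of shControl, with a ratio of shNelfE over shControl of 0.104 (0.0204 to 0.335). Chromosome 17, 36531000 to 36531999 held 3, 9, 5 and 36, with a ratio of 0.150 (0.0459 to 0.383). At both, all 3 knockdowns were below shControl, and both lay within 30 kb of a bin of 100 or more tags (29 and 28 kb). Chromosome 4, 123944000 to 123944999 held 19, 15, 1 and 11, with a ratio of 0.0981 (0.00228 to 0.675), so there shNelfE alone was low.

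The last of these was also the lowest bin in shNelfE against both other knockdowns, at 0.0474 (0.00114 to 0.298) over shSpt4 and 0.0707 (0.00168 to 0.460) over shSpt5. Against shSpt4 it was followed by chromosome 11, 23981000 to 23981999, with 2 tags in shNelfE against 19 in shSpt4, 9 in shSpt5 and 11 in shControl, a ratio of 0.0948 (0.0107 to 0.393). Chromosome 3, 139012000 to 139012999 held 7 in shNelfE against 36 in shSpt4, 8 in shSpt5 and 29 in shControl, a ratio of 0.175 (0.0658 to 0.399). Here shNelfE and shSpt5 were low together, and shSpt4 was not. Against shSpt5, chromosome 11, 86403000 to 86403999 held 6 in shNelfE against 34 in shSpt5, a ratio of 0.187 (0.0642 to 0.451), with 27 in shSpt4 and 14 in shControl. Chromosome 17, 29125000 to 29125999 held 6 in shNelfE against 30 in shSpt5, a ratio of 0.212 (0.0722 to 0.518), with 14 in shSpt4 and 18 in shControl. In both bins shSpt5 was the highest library by tags, against the order seen in most weak solitary bins.

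Per kept tag, few bins passed the measure of change as higher in a knockdown than in shControl, and those at the top held 3 or 4 shControl tags. Chromosome 12, 55903000 to 55903999 held 29 shSpt4 tags, 6 of shSpt5, 11 of shNelfE and 3 of shControl, a ratio of shSpt4 over shControl of 11.6 (3.59 to 59.4). Chromosome 16, 23140000 to 23140999 held 16, 16, 6 and 3, with 6.39 (1.83 to 34.2) for shSpt4 and 5.43 (1.55 to 29.1) for shSpt5 over shControl. Chromosome 4, 148914000 to 148914999 held 19, 13, 12 and 4, with 5.69 (1.89 to 23.0) for shSpt4 over shControl. The first of these was high in shSpt4 above all, and at the other two the intervals of shSpt4 and of shSpt5 over shControl both lay above 1.

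At 2 further bins all 3 knockdowns stood above shControl, at much the same level. Chromosome 6, 144411000 to 144411999 held 11 shSpt4 tags, 13 of shSpt5, 15 of shNelfE and 3 of shControl, with 5.39 (1.53 to 29.1) for shNelfE over shControl. Chromosome 1, 10865000 to 10865999 held 12, 17, 13 and 4, with 4.32 (1.41 to 17.7) for shSpt5 over shControl. Since the control library is shared, a low shControl count alone raises all 3 ratios. At the other end, the bins nearest to no difference in all 3 comparisons with shControl were on chromosomes 3 and 5. Chromosome 3, 18816000 to 18816999 held 14, 17, 16 and 17 tags, with ratios of 0.986 (0.450 to 2.13), 1.02 (0.488 to 2.12) and 1.02 (0.480 to 2.14). Chromosome 3, 5559000 to 5559999 held 10, 12, 11 and 12 tags, and chromosome 5, 94064000 to 94064999 held 9, 11, 10 and 11. Even at these bins the intervals reach past a 2-fold difference in both directions.

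The deposited reads fall into 2 categories whose meaning the file headers do not give, and the bins were chosen on the first. The second category was empty at 82.4% of the weak solitary bins, against 74.8% of strong summit bins, and 123 weak bins held 20 or more of its reads. Summed over the weak solitary bins, the second category was also lower than in shControl, with ratios of 0.857 (0.818 to 0.897) for shSpt4, 0.693 (0.661 to 0.726) for shSpt5 and 0.832 (0.796 to 0.871) for shNelfE, while over the whole genome it was 1.03, 1.06 and 1.03. These reads took no part in choosing the bins. The bin with the most of them, chromosome 3, 96571000 to 96571999, held 2129 and was singled out after its values were seen. Of its first-category tags shSpt4 had 12, shSpt5 12, shNelfE 22 and shControl 18. Without that bin the second-category ratios were 0.817, 0.646 and 0.790, so the order of the libraries was the same.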

How the data were processed

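Pol II ChIP-seq positions were deposited by the authors as 1 signed number per aligned read, in which plus and minus stand for the strands, per the file headers. They were raw positions without normalization (unit: other), aligned with Bowtie to mm8, per the submitters' processing notes. The aligner version and whether positions start at 0 or 1 are not given in the sources used here. Chromatin was sonicated, with linker-mediated PCR and gel size selection after it, per the labels' protocols.

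The deposited first-category reads numbered 2881229 for shSpt4, 3788237 for shSpt5, 3272816 for shNelfE and 3486288 for shControl. Keeping 1 tag per position and strand left 2646944, 3116313, 2938052 and 3170090. Repeated positions had been 8.13%, 17.7%, 10.2% and 9.07%. Tags were moved by 41 bp and summed in bins of 1000 bp on autosomes 1 to 19. Ratios are of tags per 1000000 kept tags, with exact binomial 95% intervals. Median ratios used a pseudocount of 0.5 tags. Intervals of factors between ratios are normal on the log scale. Python 3.11.15, NumPy 2.4.6, SciPy 1.17.1 and pandas 2.3.3 were used, and the code was tested on simulated data.

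Bins named were the 3 highest and 3 lowest in each of 6 comparisons among those counted as changed, and the 3 nearest a ratio of 1 against shControl; 2 more were picked after their values were seen. The members, lists and alternatives were chosen with earlier results of these data known. The whole cell extract library was not used here. The gene and promoter tables at hand describe another assembly, so no gene name or sequence is given.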

Additional observations from a re-analysis of the deposited data

How the results depend on the processing

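The limits are those of 1 library per group and about 10 to 20 tags per bin, so ratios of single bins are loose and no replicate spread is known. No paired analysis was possible because each group holds 1 library and no result comes from a test. Over 12 alternatives the ratio spanned 0.670 to 0.940 for shSpt4 over shControl, 0.455 to 0.958 for shSpt5 over shControl, 0.681 to 1.01 for shNelfE over shControl, 0.679 to 1.01 for shSpt5 over shSpt4, 0.994 to 1.07 for shNelfE over shSpt4 and 1.05 to 1.50 for shNelfE over shSpt5. Of these 72 values, 66 kept the direction and the interval's side of 1. Scaled by the median ratio over all bins, shNelfE over shControl was 1.009 (0.999 to 1.019) and shSpt5 over shSpt4 1.009 (0.997 to 1.021), so neither kept its reduction. For shNelfE over shSpt4 the ratio was 0.994 (0.979 to 1.01) over bins with no other bin of 20 tags nearby, and its interval also took in 1 with the local background off (1.005), with bins shifted by 500 bp (1.008) and for 60 to 99 tags (1.008). Its direction thus depends on these settings.

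Counts of changed bins moved with the scale. Scaled by quiet bins, bins higher than shControl numbered 33 for shSpt4, 10 for shSpt5 and 10 for shNelfE. Bins lower than shControl numbered 954, 2256 and 748 in the same order of libraries. Those higher in shSpt5 over shSpt4 numbered 36, and those lower in shNelfE over shSpt5 numbered 46. Scaled by the median ratio, bins higher and lower numbered 184 and 306 for shSpt4, 281 and 431 for shSpt5 and 153 and 119 for shNelfE against shControl, 223 and 258 in shSpt5 over shSpt4 and 340 and 221 in shNelfE over shSpt5. With all reads kept, bins higher numbered 63 in shSpt5 and 48 in shNelfE against shControl and 104 in shSpt5 over shSpt4, and bins lower 133 in shNelfE over shSpt5. The shares of all bins with at least 40 tags that were called on these settings are not given here. The counts thus do not show how weak solitary bins differ from other bins. The cause of the moves in the counts, other than the scale itself, was not tested.

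The focal ratio was 8.14 for shSpt4, 6.27 for shSpt5, 7.68 for shNelfE and 9.52 for shControl against bins 5 to 10 away, 14.0, 12.2, 12.5 and 14.0 with quiet-bin tags off, and 7.36 in shNelfE and 9.20 in shControl with all reads kept. The number of weak solitary bins was 2423 when no other bin of 20 tags was allowed within 2 to 10 bins. Leaving out tied bins or bins with second-category reads, both added after the data were seen, moved no ratio across 1.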
